A study of Mus musculus with 14 samples.

Results

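The H3K4me2 regions of livers expressing a YAP transgene were set against those of wild-type livers, across all regions and all protein-coding genes. H3K4me2 is the dimethylated form of lysine 4 of histone H3. All enriched regions of the YAP and WT lists on chromosomes 1 to 19, X and Y were taken. They numbered 105895 of the 123145 regions in the 6 lists of the series, with 51676 in YAP livers and 54219 in WT livers. The genes were the 21779 protein-coding genes placed on these chromosomes, each with 5 kb on both sides. YAP livers came from YAP transgenic C57BL/6 mice in which doxycycline at 50 mg/L of drinking water for 10 days turns the transgene on, and WT livers from wild-type C57BL/6 mice. The labels attach the doxycycline sentence to every sample. They do not say whether WT mice drank it, which promoter drives the transgene, which liver cells express it, or the sex and age of the mice. Both genotypes had 2 H3K4me2 libraries, but the authors deposited 1 list per genotype for both libraries. No spread between replicates can therefore be computed, no test was possible, and read depth per library is unknown. Every difference below is a difference between these 2 lists, and intervals cover counting error only. Where 2 values stand together with the words YAP before WT, the YAP value is the first.

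H3K4me2 marks promoters around active or poised transcription start sites and also enhancers, and wide stretches of it lie over genes that define a cell type. YAP is the co-activator that the Hippo pathway restrains. It has no DNA-binding domain and reaches DNA mainly through TEAD factors, often beside AP-1 factors, and in liver it can shift hepatocytes towards a progenitor or bile duct character. The tissue of both lists was checked with markers. All 8 hepatocyte markers carried H3K4me2 in both lists, with 57.1 kb in YAP livers and 72.8 kb in WT livers in sum. Of 8 markers of other tissues, 4 had no base in either list (Myh6, Myod1, Nkx2-1 and Pdx1) and 4 had bases. Rbfox3, a neuronal gene, had 3.06 kb in YAP livers and none listed in WT livers. Sftpc had 4.12 and 4.24 kb, Cdx2 had 1.26 and 0.763 kb, and Neurod1 had 0.511 and 0.506 kb, YAP before WT.

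The promoters of 4 genes stand for the 2 directions of difference, because all 300 bases around the start (250 before it and 50 after it) were covered in 1 list and none in the other. Sequences are from RefSeq on GRCm38.p6, whose positions are those of mm10, and 17492 of the 21779 genes (80.3%) had a promoter entry. Fry, a large microtubule-associated protein (chr5:150259680-150259979, plus strand), and Efemp1, the matrix protein fibulin-3 (chr11:28852955-28853254, plus strand), were covered in YAP livers only. The Fry window is at a start inside the gene, which spans chr5:150118618-150497753, and not at the gene's outer boundary. The carboxylesterase Ces3b (chr8:105083505-105083804, plus strand) and the organic anion transporter Slco1a1 (chr6:141946913-141947212, minus strand) were covered in WT livers only. Of the 9581 genes whose promoter entry was covered in either list, 5.21% had it covered in YAP livers only and 5.44% in WT livers only. Capitals mark GGAATG, the core of the TEAD motif, or TGANTCA, the AP-1 motif with any base allowed at N, searched on both strands. The reverse complement of the first, which is the form found here in Slco1a1, is also in capitals.
Fry: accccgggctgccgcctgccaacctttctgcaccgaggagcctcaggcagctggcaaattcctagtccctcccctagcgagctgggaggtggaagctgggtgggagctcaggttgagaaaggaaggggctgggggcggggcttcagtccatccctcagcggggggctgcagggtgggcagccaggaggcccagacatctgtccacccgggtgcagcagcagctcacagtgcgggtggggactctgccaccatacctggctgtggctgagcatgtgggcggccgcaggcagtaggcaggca
Efemp1: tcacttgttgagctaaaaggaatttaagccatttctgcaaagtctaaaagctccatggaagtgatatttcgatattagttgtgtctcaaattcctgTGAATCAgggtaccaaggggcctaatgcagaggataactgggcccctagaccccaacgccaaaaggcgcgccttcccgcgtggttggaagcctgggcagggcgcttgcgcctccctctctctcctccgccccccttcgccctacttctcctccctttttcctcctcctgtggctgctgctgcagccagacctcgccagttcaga
Ces3b: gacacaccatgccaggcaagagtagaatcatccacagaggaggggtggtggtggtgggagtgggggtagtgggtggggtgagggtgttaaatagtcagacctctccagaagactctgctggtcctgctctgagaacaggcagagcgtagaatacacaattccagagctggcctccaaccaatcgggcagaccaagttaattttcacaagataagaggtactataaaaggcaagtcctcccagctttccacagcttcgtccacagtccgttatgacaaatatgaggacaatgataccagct
Slco1a1: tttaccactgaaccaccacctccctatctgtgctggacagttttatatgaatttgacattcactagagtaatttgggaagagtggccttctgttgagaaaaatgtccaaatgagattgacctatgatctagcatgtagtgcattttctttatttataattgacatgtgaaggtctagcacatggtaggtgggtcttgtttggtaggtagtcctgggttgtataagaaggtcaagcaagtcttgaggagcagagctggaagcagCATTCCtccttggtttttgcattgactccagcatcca
Neither motif was found in this window of Fry or Ces3b. Over all promoters, GGAATG was present in 14.1% (11.6% to 17.0%, Wilson 95%) of the 633 covered in YAP livers only and in 12.1% (9.88% to 14.7%) of the 694 covered in WT livers only. It was present in 11.6% of the 10047 covered in both lists, 15.6% of the 9889 covered in neither and 13.6% of all 21263. TGANTCA was in 7.74% (5.90% to 10.1%) of the YAP-only promoters and in 4.47% (3.16% to 6.27%) of the WT-only promoters, against 4.42% in both, 9.73% in neither and 6.99% of all. The share for each motif was highest among promoters with no H3K4me2.

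The amount of genome under H3K4me2 was 0.938 times as large in YAP livers as in WT livers, and the bases found in 1 list only far exceeded this net difference. In all 40.4 Mb were covered in both lists, which was 66.3% of the 60.8 Mb covered in either. A further 8.62 Mb were covered in YAP livers only and 11.9 Mb in WT livers only. Slightly more than 1 base in 2 of these lay in regions that the lists otherwise shared. Of the YAP-only bases, 4.45 Mb were in shared regions and 4.17 Mb in regions without any counterpart. Of the WT-only bases, the values were 6.23 and 5.62 Mb. The net difference of -3.23 Mb was therefore made of -1.45 Mb in whole regions and -1.78 Mb at regions present in both livers.

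The deficit in YAP livers was in proportion greatest among the widest regions, the class that in many tissues lies over genes of cell identity. YAP livers had 766 regions of 4000 bp or more and WT livers had 969 (ratio 0.791). They spanned 3.83 Mb in YAP livers and 5.03 Mb in WT livers. At 8000 bp or more there were 16 in YAP livers and 39 in WT livers, a ratio of 0.410. Below 4000 bp the ratio of numbers lay between 0.932 and 1.01 in every class. Over all regions the median width was 575 bp in YAP livers and 571 bp in WT livers. Nearly all wide regions had a counterpart. Of those of 4000 bp or more, 99.6% (98.9% to 99.9%) in YAP livers and 99.1% (98.2% to 99.5%) in WT livers overlapped the other list by at least 1 bp, which regions of this width meet easily. Of their bases, 93.3% in YAP livers and 87.6% in WT livers were covered in the other list. Of regions under 250 bp, 49.1% (48.0% to 50.2%) of YAP regions and 41.6% (40.5% to 42.7%) of WT regions overlapped the other list.

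**Figure D1:**
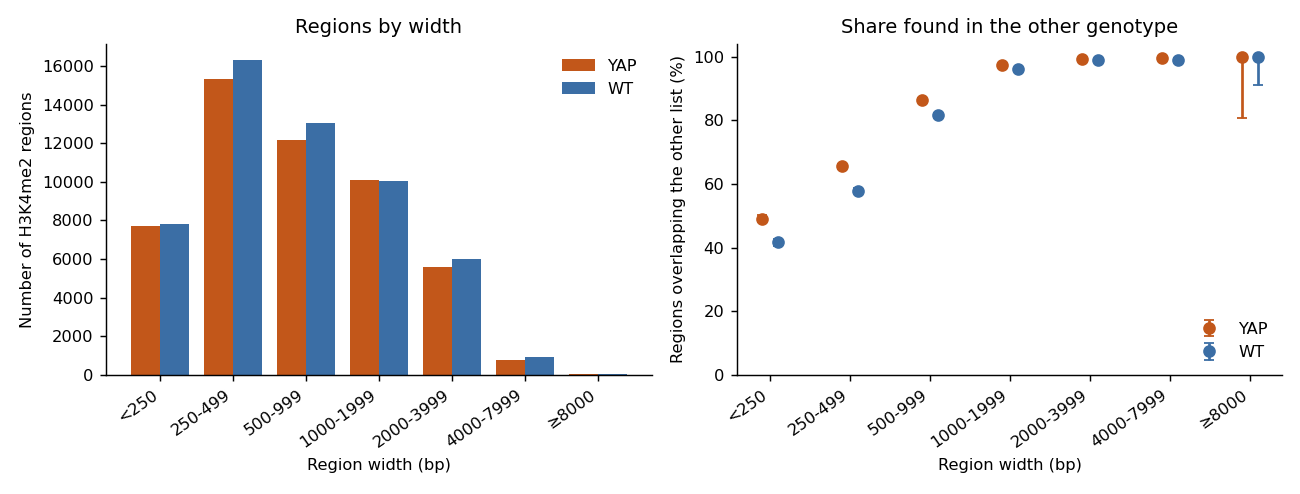
Left, number of H3K4me2 regions by width class (bp) in YAP (orange) and WT livers (blue). Right, percentage of the regions of each class that overlap the other list by 1 bp or more, with Wilson 95% intervals. The share rises with width to 99.6% (YAP) and 99.1% (WT) at 4000 bp or more, and the 16 YAP and 39 WT regions of 8000 bp or more are barely visible on the left.

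The widest YAP region covered 10.7 kb at Rnd3, an atypical small GTPase, of which WT livers had 10.5 kb. The next YAP regions were at Gata6 (10.4 kb, all of it covered in WT) and Bcl6 (9.88 kb, with 9.73 kb covered in WT), both transcription factors. Among the widest WT regions was one at Acsl1, which activates fatty acids, and 8.43 kb of its 10.0 kb were covered in YAP livers.

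Regions that matched singly differed little in width, and elsewhere 1 region of a list faced several of the other. In 26209 pairs 1 YAP region matched 1 WT region. The YAP region was the wider in 11672 pairs (44.5%) and the WT region in 14436, and the median log2 ratio of widths was -0.02. The YAP region was at least 2-fold wider in 1155 pairs and the WT region in 1656. The share of pairs with a wider YAP region was 47.1% at a mean width of 250 to under 500 bp and 30.2% at 4000 to under 8000 bp (281 pairs). In 3813 places 1 WT region faced several YAP regions, 8217 in all, which covered 7.87 Mb in YAP livers and 9.03 Mb in WT livers (ratio 0.871). In 3408 places 1 YAP region faced several WT regions, 7229 in all, covering 7.12 Mb in YAP livers and 6.60 Mb in WT livers (ratio 1.08). A single region also spans the gaps between the pieces it faces. The opposite directions of these 2 ratios therefore follow largely from how the places were sorted.

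Near gene ends covered bases were nearly level, and the lowest ratios were inside genes and just outside them. Gene ends are the stretches within 1 kb of where a protein-coding gene's annotation begins or stops. Gene ends had 15.9 Mb covered in YAP livers and 16.2 Mb in WT livers, a ratio of 0.981. Inside genes away from the ends, 26.3 Mb were covered in YAP livers and 28.7 Mb in WT livers (0.915). At 1 to 5 kb from genes the values were 2.96 Mb and 3.27 Mb (0.905), at 5 to 50 kb they were 2.72 Mb and 2.84 Mb (0.956), and beyond 50 kb they were 1.12 Mb and 1.18 Mb (0.948), YAP before WT. The share of regions found in the other liver also differed by position, but not in the order of these ratios. At gene ends it was 91.8% (91.4% to 92.2%) of YAP regions and 91.3% (91.0% to 91.7%) of WT regions. Inside genes it was 70.7% (70.1% to 71.3%) of YAP regions and 62.6% (62.0% to 63.3%) of WT regions. Beyond 50 kb it was 65.5% (63.3% to 67.6%) of YAP regions and 64.7% (62.5% to 66.8%) of WT regions. Regions inside genes were narrower than those at ends, with a median width of 430 bp in YAP livers and 445 bp in WT livers against 1122 and 1136 bp at ends. Among regions under 500 bp alone, 72.6% of YAP and 70.9% of WT regions at ends were in the other list, and 57.9% of YAP and 47.0% of WT regions inside genes.

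The deficit was greatest at an intermediate depth into genes. For regions centred inside a gene and within 1 kb of its boundary, covered bases in YAP livers were 0.985 times those of WT livers. The ratio was 0.914 at 2 to 5 kb, 0.814 at 5 to 10 kb (2.51 Mb in YAP, 3.09 Mb in WT), 0.831 at 10 to 20 kb, 0.900 at 50 to 100 kb and 0.992 beyond 100 kb. Outside genes it was 1.004 within 1 kb, 0.878 at 2 to 5 kb and between 0.928 and 0.970 farther out.

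**Figure D2:**
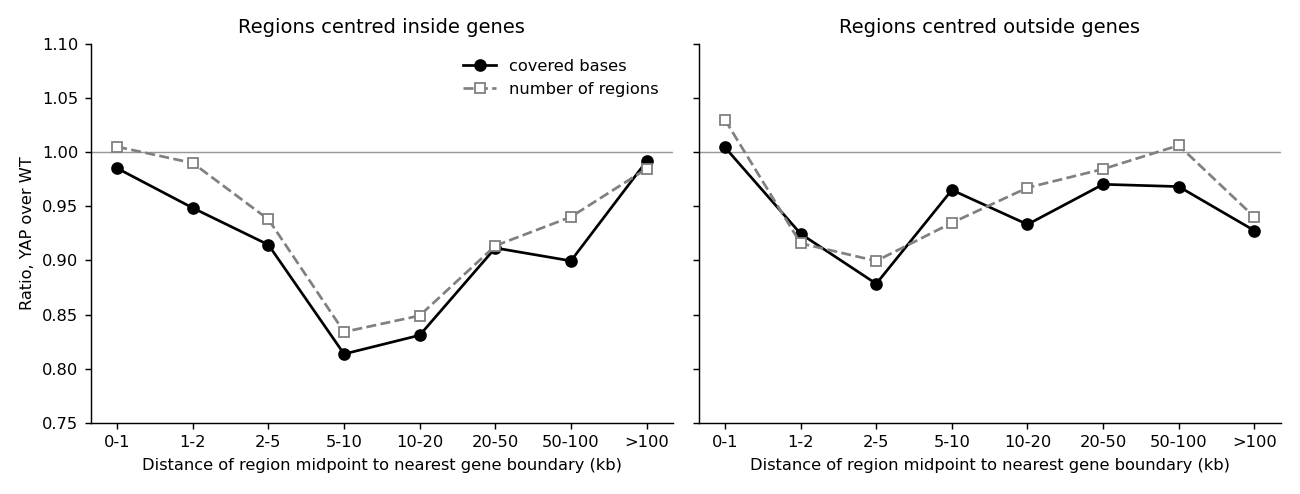
Ratio of YAP to WT livers in H3K4me2-covered bases (filled circles) and in number of regions (open squares), by distance in kb from the region's midpoint to the nearest boundary of a protein-coding gene, inside genes (left) and outside (right). The lowest ratios are inside genes at 5 to 10 kb (0.814) and 10 to 20 kb (0.831). The vertical axis starts at 0.75.

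Around 21263 RefSeq transcription starts, the bases 600 to 800 after the start were covered at 49.6% of starts in YAP livers and 49.0% in WT livers. At 3000 to 3200 bases before the start the shares were 6.45% in YAP livers and 7.32% in WT livers, and at 4000 to 4200 bases after it 7.65% in YAP livers and 8.68% in WT livers. Within 1 kb of a start 14.2 Mb were covered in YAP livers and 14.3 Mb in WT livers, a ratio of 0.990. In the first 200 bases after the start the shares were 38.4% in YAP livers and 40.9% in WT livers.

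Far from genes, the widest regions found in 1 liver only were smaller in YAP livers. More than 50 kb from any protein-coding gene, the widest YAP-only region was 2.43 kb long and 71.3 kb from Trabd2b, a Wnt-inactivating protease. It was followed by 2.40 kb at 369 kb from Gli3, a Hedgehog transcription factor, and 2.28 kb at 124 kb from Lgalsl. The widest WT-only region was 4.63 kb long and 96.6 kb from Bcl6, the repressor whose own wide region was listed in both livers. It was followed by 3.81 kb near Zfp536 and 2.66 kb near Phlda1.

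Per gene, H3K4me2 was widespread and mostly similar. The bases of a gene are those covered between 5 kb before and 5 kb after it. The log2 ratio divides YAP bases plus 500 by WT bases plus 500, which understates the difference at genes with few bases. Of the 21779 genes, 14915 (68.5%) had a base in either list, 14600 in YAP livers and 14350 in WT livers. They were covered over a median of 3.46 kb in YAP livers and 3.64 kb in WT livers. Fewer bases in YAP livers were found at 8819 genes (59.1% of 14915) and more at 6089 (40.8%), with a median log2 ratio of -0.06. When YAP bases were scaled to the WT total, a choice made after seeing the data, 47.0% had fewer, 53.0% had more and the median was 0.02. Within 2-fold were 94.4% of the genes. At least 2-fold fewer bases in YAP livers were found at 336 genes (2.25% of 14915) and at least 2-fold more at 498 (3.34%). Chromatin came from bulk liver, so fewer cells carrying the mark and less of the mark per cell cannot be told apart.

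**Figure D3:**
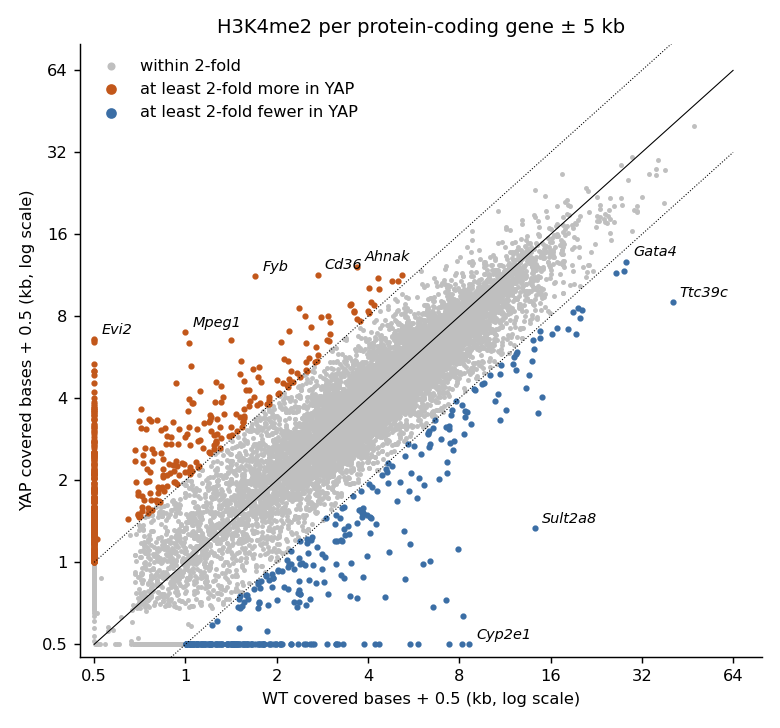
Covered kb plus 0.5 for each of the protein-coding genes and 5 kb around it, YAP livers (vertical) against WT livers (horizontal), both on log axes. Dotted lines mark 2-fold after adding 500 bases. The 336 genes with at least 2-fold fewer and the 498 with at least 2-fold more in YAP livers lie mostly at few bases. Of the 83 genes over 16 kb on average 63 lie below the diagonal and 20 above it.

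Genes past 2-fold mostly carried few bases in both directions, with a median of 1.105 kb (fewer) and 0.840 kb (more) averaged over the livers. Within 2-fold it was 3.69 kb. The 2 directions differed in how many genes had no base in 1 list and in how many differences were large. Of the 498 genes with 2-fold more, 289 had no base listed in WT livers, and of the 336 with 2-fold fewer, 134 had none in YAP livers. Differences over 5 kb were found at 21 of the 498 and at 50 of the 336. The share of genes with fewer bases in YAP livers was 40.7% among genes with up to 0.5 kb on average, 64.3% at 4 to 8 kb and 75.9% over 16 kb (83 genes, median log2 ratio -0.29). At 8 to 16 kb on average 22 of 1114 genes had 2-fold fewer (1.97%, near the 2.25% of all genes), and over 16 kb 4 of 83 did (4.82%). In neither class did any have 2-fold more, against 3.34% of all genes. Among genes with up to 0.5 kb, 7.91% had 2-fold fewer and 15.0% had 2-fold more. Of the genes with 2-fold more, 229 had H3K4me2 at a gene end in YAP livers only and 122 in both livers. Of those with 2-fold fewer, 117 had it at an end in WT livers only and 127 in both. All were chosen by their bases in these same lists, so these counts describe them and test nothing.

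At the genes with the largest deficit of covered bases in YAP livers, some WT regions had a YAP counterpart and others had none. Ttc39c had 8.51 kb in 8 YAP regions and 39.9 kb in 20 WT regions (log2 ratio -2.17). Of these 20 WT regions 16 had no YAP counterpart, the widest of 7.39 kb. Gata4, a zinc finger transcription factor of the embryonic and adult liver, had 12.2 kb in 13 YAP regions and 28.0 kb in 28 WT regions. At its widest region, YAP livers had 5.14 kb and WT livers 5.46 kb. Sult2a8, a sulfotransferase of mouse liver that acts on bile acids, had 0.837 kb in YAP livers and 13.7 kb in WT livers (log2 ratio -3.41), and its 5.13 kb WT region had no counterpart. Nudt7, a coenzyme A hydrolase of peroxisomes, had 3.02 kb in YAP livers and 14.1 kb in WT livers, of which 8.71 kb was 1 WT region.

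**Figure D4:**
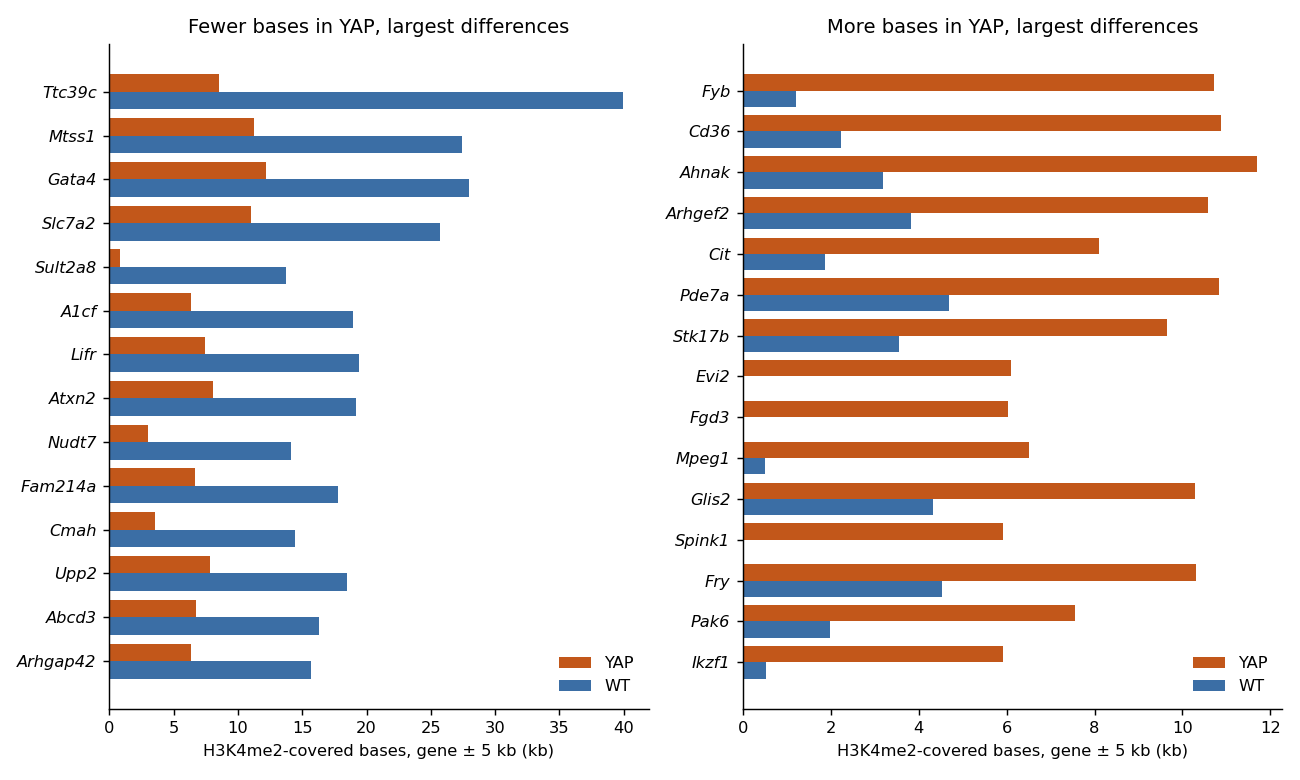
H3K4me2-covered kb within the gene and 5 kb on both sides for genes with the largest deficit in YAP livers (left, 1 of the 15 not drawn) and the 15 with the largest excess (right) among those past 2-fold. YAP livers are the upper, orange bar and WT livers the lower, blue bar. The difference is -31.4 kb at Ttc39c and 9.51 kb at Fyb, and the horizontal scales differ.

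Several of the others are enzymes and transporters of hepatocytes. Slc7a2, a carrier of arginine and lysine, had 10.995 kb in YAP livers and 25.7 kb in WT livers. Abcd3, a transporter of the peroxisome membrane, had 6.77 kb in YAP livers and 16.3 kb in WT livers. Upp2, a uridine phosphorylase, had 7.84 and 18.5 kb, and Cmah, which makes a sialic acid that humans lack, had 3.56 and 14.5 kb, YAP before WT. A1cf, an RNA-binding partner of the editing enzyme for apolipoprotein B mRNA, had 6.38 kb in 7 YAP regions and 18.97 kb in 24 WT regions. Lifr, a cytokine receptor subunit, had 7.40 kb in YAP livers and 19.4 kb in WT livers. Others of the 15 were Mtss1 (11.2 and 27.4 kb), Atxn2 (8.07 and 19.2 kb), Fam214a (6.69 and 17.8 kb) and Arhgap42 (6.36 and 15.7 kb), again YAP before WT. Among the higher-scoring 50% of regions, Slc7a2, Atxn2, Fam214a, Abcd3 and Arhgap42 came within 2-fold, with Atxn2 at a log2 ratio of -0.22.

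The genes with the largest excess of covered bases in YAP livers included genes of blood cells and of the cytoskeleton. Fyb, an adaptor protein of T cells and myeloid cells, had 10.7 kb in 13 YAP regions and 1.20 kb in 2 WT regions (log2 ratio 2.72). Mpeg1, which encodes a pore-forming protein of macrophages, had 6.50 kb in YAP livers and 500 bases in WT livers (2.81). Ikzf1, the haematopoietic transcription factor Ikaros, had 5.91 kb in YAP livers and 0.531 kb in WT livers (2.64). Stk17b, a kinase best known in lymphocytes, had 9.65 kb in YAP livers and 3.54 kb in WT livers, although it was within 2-fold (log2 ratio 0.66) among the higher-scoring 50% of regions. Cd36, a fatty acid transporter and scavenger receptor found on macrophages, endothelium and fat-laden hepatocytes, had 10.9 kb in YAP livers and 2.23 kb in WT livers (2.06), including a 3.91 kb region with no WT counterpart. Arhgef2, a microtubule-bound exchange factor, had 10.6 kb in YAP livers and 3.82 kb in WT livers. Cit, a kinase of cell division, had 8.11 kb in YAP livers and 1.86 kb in WT livers, and Pak6, an effector kinase of Cdc42, had 7.55 and 1.97 kb, YAP before WT. Ahnak, a giant scaffold protein, had 11.7 kb in YAP livers and 3.19 kb in WT livers. Pde7a, Glis2 and Fry had 10.8, 10.3 and 10.3 kb in YAP livers and 4.69, 4.32 and 4.53 kb in WT livers.

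Beside these 15 genes, markers of other cells had the following bases. All 6 Kupffer cell and macrophage markers had more bases in YAP livers, 14.7 kb in sum against 5.15 kb in WT livers. Over all genes 40.8% had more. Of the 6 markers, 5 passed 2-fold (83.3%, against 3.34% of all genes). For 4 of them (Adgre1, Clec4f, Csf1r and Cd5l) no base was listed in WT livers, which fixes their direction. Among the higher-scoring 50% of regions only 2 of these markers had a base, and their median log2 ratio was -0.07, against 1.62 with all regions. Of 7 lymphocyte markers, Cd3e and Cd8a had none in either list and Ptprc, common to all leukocytes, had 2.70 kb in YAP livers and none listed in WT livers. The 7 summed to 9.46 kb in YAP livers and 7.10 kb in WT livers. With gene bodies alone, 2 lymphocyte markers had a base, against 4 with the 5 kb flanks. Neutrophil markers had 2.53 kb in YAP livers and 2.89 kb in WT livers, all of it at Csf3r. The part of these cells in the values of Fyb, Mpeg1, Ikzf1 and Stk17b was not tested. Endothelial markers summed to 7.26 kb in YAP livers and 5.15 kb in WT livers, with 4 of 5 higher in YAP livers and Tek lower (none listed in YAP, 1.48 kb in WT). Their median log2 ratio was 0.53 with all regions and -0.81, over 2 markers, among the higher-scoring 50%. Stellate cell markers summed to 5.10 kb in YAP livers and 10.7 kb in WT livers, most of the gap at Reln (1.52 and 6.38 kb, YAP before WT). Cholangiocyte markers summed to 9.05 kb in YAP livers and 5.09 kb in WT livers, most of the gap at Spp1 (3.75 and 0.619 kb, YAP before WT), and Krt7, Krt19 and Cftr had none in either list.

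No base at all was listed in YAP livers at 56 genes (0.375% of 14915) with 1 kb or more in WT livers. The reverse, none in WT livers with 1 kb or more in YAP livers, held for 138 genes (0.925%). The first group was led by Cyp2e1, the ethanol-oxidising cytochrome (8.14 kb in 5 regions), Ces3b (7.67 kb), Slco1a1 (6.88 kb), Cyp2c29 (5.37 kb), Ces1f (5.02 kb) and Orm1, an acute-phase plasma protein (3.85 kb). The second was led by Evi2 (6.10 kb in 7 regions, inside the bounds of Nf1), Fgd3, an activator of Cdc42 (6.03 kb in 8 regions), Spink1, a trypsin inhibitor (5.92 kb in 2 regions), Cacna2d4 (4.53 kb), Marchf1, a ubiquitin ligase that removes MHC class II from the surface of antigen-presenting cells (4.04 kb), and Efemp1 (3.52 kb). Of the YAP regions at these genes the widest was 4.17 kb, at Spink1, and of the WT regions 6.16 kb, at Slco1a1.

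At some genes the number of regions differed while covered bases were within 10%. Ptprd, a receptor tyrosine phosphatase, had 16.6 kb in 25 YAP regions and 17.6 kb in 15 WT regions. Denn2b had 23 YAP regions and 14 WT regions, Lims2, an adhesion adaptor, 13 and 5, and Macf1, a linker of microtubules and actin, 31 and 23, YAP before WT. Rora, a nuclear receptor, went the other way with 24 regions in YAP livers and 32 in WT livers.

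Among genes for the metabolism of drugs and foreign compounds, families differed, with fewer covered bases in YAP livers at all glucuronosyltransferase and carboxylesterase genes but not at most glutathione S-transferase genes. Over all genes 59.1% had fewer. All 19 UDP glucuronosyltransferase genes with a base had fewer (94.7 kb in YAP livers and 146 kb in WT livers, median log2 ratio -0.51), 3 of them by 2-fold. These enzymes attach glucuronic acid, and 13 of the 19 have windows that overlap another member's, so they are not separate observations. All 15 carboxylesterase genes with a base had fewer, with 15.2 kb in YAP livers and 51.9 kb in WT livers (median -0.73). Of these 7 had 2-fold fewer (46.7%, against 2.25% of all genes). Ces3a had 0.137 kb in YAP livers and 7.74 kb in WT livers, Ces1d had 2.35 and 6.48 kb, and Ces1b had 0.587 and 4.19 kb, YAP before WT. Of 61 cytochrome P450 genes with a base, 45 had fewer and 16 more (129 kb in YAP livers, 187 kb in WT livers, median -0.32), with 13 past 2-fold fewer and 3 past 2-fold more. Among them Cyp2c67 had 0.670 kb in YAP livers and 4.995 kb in WT livers, Cyp2d26 had 2.52 and 5.86 kb, and Cyp2d40 had none listed and 2.82 kb, YAP before WT. The 3 with 2-fold more (4.92%, against 3.34% of all genes) were Cyp2b9 (1.42 kb), Cyp4a31 (1.26 kb) and Cyp2a22 (1.05 kb), with none listed in WT livers. Of 23 glutathione S-transferase genes 14 had more and 9 fewer (80.4 kb in YAP livers, 81.0 kb in WT livers, median 0.06, but -0.02 among the higher-scoring 50% of regions), with Gstp3 at 3.64 kb in YAP livers and 1.51 kb in WT livers. Near-identical relatives within these families may share aligned reads, so single members are uncertain.

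Other families of secreted and transport proteins are read against the 59.1% of all genes with fewer bases. Of 27 complement genes with a base, 22 had fewer in YAP livers (113 kb against 145 kb in WT livers, median -0.34). Cfhr2, a factor H relative, had 2.65 kb in YAP livers and 6.75 kb in WT livers, and C6 of the membrane attack complex had 0.969 and 3.57 kb, YAP before WT. C1qb, a subunit of C1q that macrophages make, had 0.609 kb in YAP livers and none listed in WT livers. Of 17 serpin A genes, 13 had fewer (median -0.32). Serpina12 had none listed in YAP livers and 2.68 kb in WT livers. Of 19 SLC22 transporter genes 12 had fewer, a share near that of all genes, and 4 of them by 2-fold (21.1%, against 2.25% of all genes), among them Slc22a7, an organic anion transporter of hepatocytes (none listed in YAP livers, 1.20 kb in WT livers). The 10 SLCO genes were split evenly (22.04 kb in YAP livers, 31.6 kb in WT livers), with Slco1a1 accounting for most of the gap. The shares with fewer bases were also near that of all genes for ABC transporters, with 18 more and 22 fewer of 40, and for sulfotransferases, with 5 fewer of 8. The sulfotransferases nevertheless summed to 17.5 kb in YAP livers and 34.1 kb in WT livers, with Sult2a8 accounting for most of the gap. Their median was -0.40, but -0.11 among the higher-scoring 50% of regions. Of the 8, 3 had 2-fold fewer (37.5%, against 2.25% of all genes). Among these Sult1b1 had 0.555 kb in YAP livers and 3.46 kb in WT livers.

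**Figure D5:**
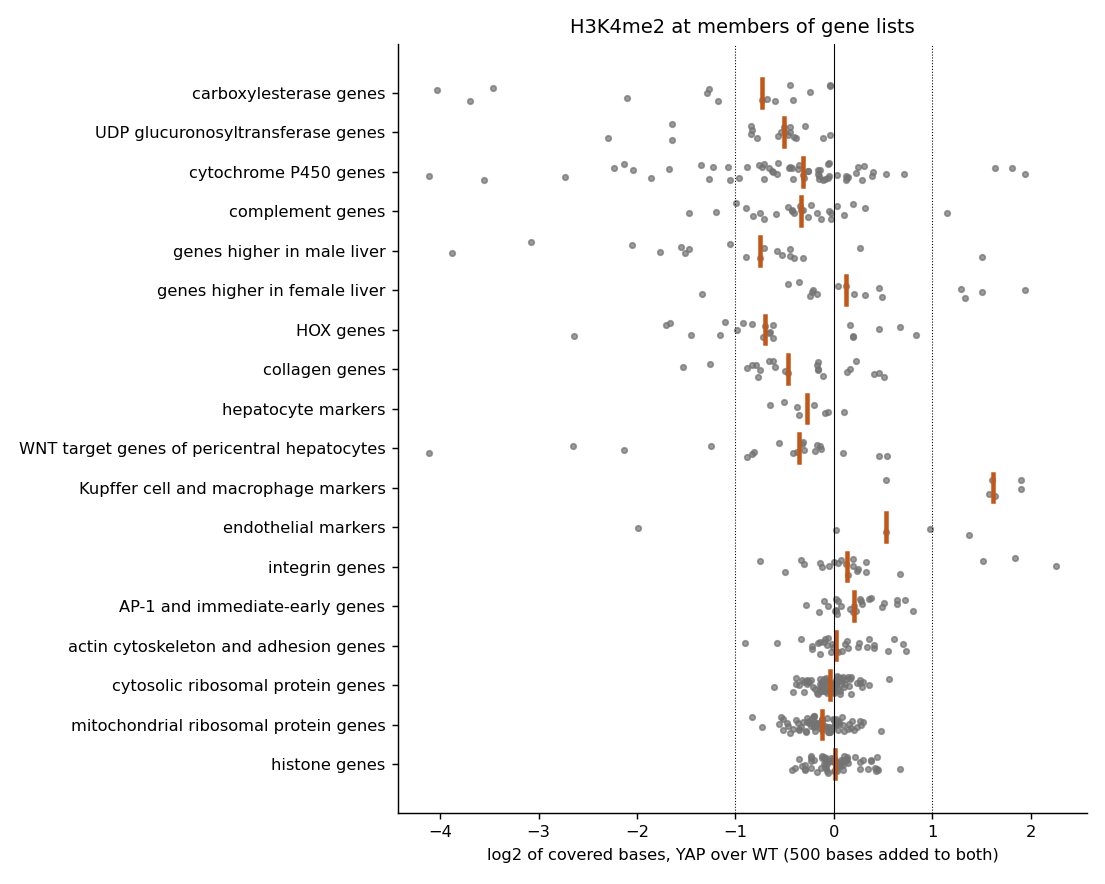
Each grey point is 1 gene with a base in either list, placed by its log2 ratio of covered bases in YAP over WT livers after adding 500 bases, and each orange bar is the median of the list. Dotted lines mark 2-fold. Carboxylesterase genes (median -0.73) and HOX genes (-0.70) lie to the left, and macrophage markers (1.62) to the right, where 4 of 6 had no base in WT livers.

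Genes expressed at different levels in male and female mouse livers were counted by the sex in which they are higher, except Cux2, which was counted under both. Of 19 genes higher in male liver that had a base, 17 had fewer in YAP livers, with 53.7 kb in YAP livers and 98.2 kb in WT livers (median -0.75), where 59.1% of all genes had fewer. Of the 19, 8 had 2-fold fewer (42.1%, against 2.25% of all genes). They included Mup20, a urinary pheromone carrier (0.344 kb in YAP livers, 2.37 kb in WT livers). Elovl3, a fatty acid elongase, was within 2-fold (2.72 and 5.49 kb, YAP before WT, log2 ratio -0.89). Of 17 genes higher in female liver, 10 had more and 7 fewer (73.8 kb in YAP livers, 78.6 kb in WT livers, median 0.13, but -0.10 among the higher-scoring 50% of regions). Cux2, a transcription factor of female liver, is among the genes with more in both counts, with 6.83 kb in YAP livers and 2.09 kb in WT livers. The genes of the Y chromosome Ddx3y, Eif2s3y, Kdm5d and Uty carried H3K4me2 in both lists, 7.11 kb in YAP livers and 7.79 kb in WT livers, so each list includes male chromatin. The labels give no sex, so the part of sex in these values was not tested.

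Targets of WNT signalling around the central vein had fewer bases in YAP livers at 17 of 20 genes (61.5 kb in YAP livers, 95.4 kb in WT livers, median -0.35), where 59.1% of all genes had fewer. Of the 20, 4 had 2-fold fewer (20%, against 2.25% of all genes). Lect2, a secreted hepatocyte protein, had none listed in YAP livers and 2.64 kb in WT livers. Lgr5, a receptor for R-spondins, had 1.83 kb in YAP livers and 3.79 kb in WT livers, and Notum, a WNT deacylase, had 2.37 and 4.59 kb, YAP before WT. Lgr5 (log2 ratio -0.88) and Notum (-0.83) were within 2-fold. So were Axin2 (3.40 and 4.40 kb), Tbx3 (7.58 and 8.35 kb) and Znrf3 (4.16 and 4.64 kb), YAP before WT.

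HOX genes, the transcription factors that set position along the body axis, had fewer bases at 15 of the 21 with a base (18.3 kb in YAP livers, 47.1 kb in WT livers, median -0.70). Over all genes 59.1% had fewer. Hoxa3 had 2.84 kb in YAP livers and 10.4 kb in WT livers, Hoxb3 had 2.71 and 8.28 kb, and Hoxb2 had none listed and 2.63 kb, YAP before WT. Because 20 of the 21 have windows overlapping a neighbour's, these are a few gene clusters and not 21 separate loci. Of 13 SOX genes 11 had fewer (59.1 kb in YAP livers, 68.8 kb in WT livers), but 7 did when YAP bases were scaled to the WT total, and 4 of 10 among the higher-scoring 50% of regions. Of 23 collagen genes 17 had fewer (45.6 kb in YAP livers, 57.9 kb in WT livers, median -0.47), but 10 of 17 did among the higher-scoring 50% of regions (median -0.14). They included Col18a1, the precursor of endostatin (8.39 and 13.5 kb, YAP before WT).

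Genes of the immediate response to growth factors and stress had more covered bases in YAP livers, by small amounts at many members. All 26 AP-1 and immediate-early genes had H3K4me2, 22 had more in YAP livers and 4 fewer, where 40.8% of all genes had more, and none reached 2-fold (154 kb in YAP livers, 134 kb in WT livers, median 0.20, against -0.06 over all genes). The median was 0.08 with gene bodies alone (18 more, 7 fewer) and 0.08 among the higher-scoring 50% of regions (21 more, 5 fewer). Fos had 6.73 kb in YAP livers and 3.90 kb in WT livers, Ier3, an inhibitor of apoptosis, had 4.81 and 2.91 kb, and Batf had 2.55 and 1.25 kb, YAP before WT. Jun was nearly equal at 6.52 kb in YAP livers and 6.48 kb in WT livers. Of 30 NF-kappa B and inflammatory signalling genes 20 had more (152 kb in YAP livers, 142 kb in WT livers, median 0.07), among them Tnfaip3, a brake on NF-kappa B (9.80 and 6.93 kb), and Tnfaip8 (11.1 and 7.30 kb), YAP before WT. Within that list Il6st, a receptor subunit for the IL-6 family, had 8.71 kb in YAP livers and 11.1 kb in WT livers. Actin cytoskeleton and adhesion genes were split at 16 more and 15 fewer of 31 (237 kb in YAP livers, 215 kb in WT livers, median 0.02). The sum was carried by Myh9, the non-muscle myosin heavy chain (22.7 kb in YAP livers, 13.7 kb in WT livers), and Pxn, the adhesion adaptor paxillin (26.2 and 17.0 kb, YAP before WT). Cnn3, a calponin, had 9.25 kb in YAP livers and 14.1 kb in WT livers.

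Integrin genes had more bases at 15 of 22 (80.9 kb in YAP livers, 74.0 kb in WT livers, median 0.13). Over all genes 40.8% had more. The 3 integrin genes past 2-fold (13.6%, against 3.34% of all genes) were Itga4 (1.89 kb), Itgal (1.29 kb) and Itgb2 (0.930 kb). They are integrins of leukocytes, each with none listed in WT livers. Receptor tyrosine kinase genes went both ways, with 13 more and 18 fewer of 31. Pdgfb, a mitogen for mesenchymal cells, had 4.09 kb in YAP livers and 0.763 kb in WT livers. Axl, a receptor kinase, had 6.43 and 3.77 kb, and Egfr had 19.1 and 30.5 kb, YAP before WT. Among inhibitors of this pathway, Spry4 had 5.90 kb in YAP livers and 8.93 kb in WT livers, Spred2 had 8.76 and 12.9 kb, and the phosphatase Dusp5 had 4.47 and 4.30 kb, YAP before WT. Of 22 TGF-beta pathway genes 11 had more and 11 fewer, with Tgif2, a repressor of SMAD targets, at 6.17 kb in YAP livers and 2.88 kb in WT livers. Of 26 matrix genes 13 had more and 13 fewer. Lox, which crosslinks collagen, had 1.29 kb in YAP livers and none listed in WT livers, and Timp2, a metalloproteinase inhibitor, had 3.81 and 1.12 kb, while Sparc had 1.02 and 3.32 kb, YAP before WT. Of 13 genes of fetal liver and imprinted growth with a base, 9 had more (47.7 kb in YAP livers, 40.0 kb in WT livers), among them Igf2bp3 (9.90 and 6.74 kb), Cd24a (3.84 and 1.90 kb) and Gpc3 (2.19 and 1.05 kb), YAP before WT. Afp, the fetal albumin relative, had 3.02 kb in YAP livers and 2.35 kb in WT livers.

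Genes used in every cell differed little. The 81 cytosolic ribosomal protein genes with a base had a median log2 ratio of -0.04, or 0.05 with YAP bases scaled to the WT total, and all lay within 2-fold. Mitochondrial ribosomal protein genes had fewer at 56 of 78 (median -0.12, or -0.04 scaled), proteasome genes at 30 of 38 (median -0.15, or -0.07 scaled), and all of these lay within 2-fold too. Over all genes 59.1% had fewer. Of 69 histone genes 37 had more and 32 fewer, or 49 and 20 scaled, with 374 kb in YAP livers and 372 kb in WT livers. Glycolysis genes were split at 13 more and 12 fewer of 25 (median 0.02). Within that list Pkm, the pyruvate kinase of growing cells (4.01 kb in YAP livers, 2.45 kb in WT livers), and Hk2 (4.35 and 2.49 kb) had more, while Pklr, the pyruvate kinase of hepatocytes (3.12 and 4.73 kb), had fewer, YAP before WT. Interferon and antigen presentation genes had 14 more and 17 fewer of 31 (124 kb in YAP livers, 122 kb in WT livers), and epithelial junction genes 14 more and 13 fewer of 27 (163 and 161 kb, YAP before WT).

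LSD1, the enzyme that removes methyl groups from H3K4me2, was listed for the same livers, on 3353 regions in YAP livers and 1718 in WT livers. Of the shared regions of the YAP list, 4.86% (4.66% to 5.08%) overlapped an LSD1 region of YAP livers and 2.65% (2.498% to 2.81%) one of WT livers. Of the YAP-only H3K4me2 regions, 1.93% (1.69% to 2.20%) overlapped LSD1 of YAP livers and 0.457% (0.348% to 0.601%) LSD1 of WT livers. Of the WT-only H3K4me2 regions, 1.26% (1.09% to 1.46%) lay where YAP livers had LSD1 and 0.910% (0.767% to 1.08%) where WT livers had it. YAP-only and WT-only regions were shorter than shared ones (median width 298 and 311 bp against 758 and 792 bp, YAP before WT). Per Mb of covered bases the order was reversed for LSD1 of YAP livers on the YAP list and kept in the other comparisons. LSD1 of YAP livers lay on 51.5 YAP-only regions per Mb and on 43.96 shared regions of the YAP list per Mb. LSD1 of WT livers lay on 23.1 WT-only regions per Mb and on 23.5 shared regions of the WT list per Mb. Among genes with 2-fold fewer H3K4me2 bases, 10.7% (7.84% to 14.5%) had LSD1 in YAP livers and 8.33% (5.83% to 11.8%) in WT livers. Among genes with 2-fold more, 8.84% (6.65% to 11.7%) had it in YAP livers and 1.81% (0.954% to 3.40%) in WT livers. Within 2-fold the shares were 16.5% (15.9% to 17.2%) in YAP livers and 8.83% (8.38% to 9.31%) in WT livers. The genes past 2-fold carried less H3K4me2, with a median of 1.105 kb (fewer) and 0.840 kb (more) averaged over the livers, against 3.69 kb within 2-fold, and how far this sets their LSD1 shares was not tested.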

How the data were processed

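Chromatin of mouse liver was digested with micrococcal nuclease, immunoprecipitated and amplified by PCR, per the labels' protocols, so regions can follow nucleosome positions. Trimmomatic 0.39, BWA, bedtools 2.26.0, SAMtools 1.7, deepTools 3.3.0 and Picard 1.126 are named, with build mm10, in the submitters' processing notes. How regions were called, at which threshold, whether inputs entered and how replicates were combined is not given in the sources used here. Each deposited list holds the positions of its regions. In every region the deposited score was 10 times its −log10 p-value with the decimals dropped. The lowest −log10 p-value the authors deposited was 2.05. The signal column deposited by the authors is an enrichment whose definition is not given. Score, −log10 p-value and signal only ranked regions within a list.

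Regions were compared by at least 1 bp of overlap, in pandas 2.3.3 and numpy 2.4.6 under Python 3.11.15, and plotted in matplotlib 3.10.9. The overlap step was tested on simulated data against bedtools 2.31.1, and both counted 445. In a copy of the WT list with 200 genes emptied and 200 filled, all 200 of each kind passed 2-fold. Gene positions came from a RefSeq table of GRCm38.p6, and 108 entries placed within the first 3 Mb of a chromosome other than Y, which mm10 leaves unsequenced, were left out because their positions are those of scaffolds. Called means a log2 ratio of 1 or -1 and beyond. Shares carry Wilson 95% intervals, which treat regions as independent.

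The members, the 22 gene lists, the 36 gene families and the tests were chosen with earlier results of these data known. Named genes followed 1 rule. It took the 15 largest differences in bases each way among genes past 2-fold, skipping predicted genes and genes whose window overlaps one already taken, and the 6 genes each way with most bases in 1 list and none in the other. It also took the 5 widest regions, the 5 widest far from genes in 1 list only, up to 6 members of each list past 2-fold, the defining markers, and 5 genes by number of regions. Other list members named within 2-fold, such as Fos, Jun, Lgr5, Myh9 and Egfr, were chosen after their values were seen. A few named genes and 1 family are not reported here. The deposited lists give no value per library. Alternatives were a stricter score, lists of equal number, joined regions, other overlaps, gene bodies alone, all annotated genes, other added bases, a minimum of bases and a scaling of YAP bases.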

Additional observations from a re-analysis of the deposited data

How the results depend on the processing

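No paired analysis was possible because each genotype has 1 deposited list holding both replicates, and no replicate could be left out for the same reason. Scaling YAP bases to the WT total was added after seeing the data. Ratios of bases were called moved by the relative width of the counting interval of region numbers. With the higher-scoring 50% of each list, 87.8% of YAP and 83.9% of WT regions were shared, 143 genes had 1 kb or more in WT and none in YAP, 243 the reverse, and the median log2 ratio was -0.044. Of lists with a median at least 0.1 from 0, those that turned there were macrophage markers (-0.070), endothelial markers (-0.81), genes higher in female liver (-0.10), keratin (-0.032), chemokine (-0.011) and semaphorin and plexin genes (0.050). With lists of equal number (ratio 1 by construction), covered bases gave 0.954, median width 0.955, bases inside genes 0.934, the shares 77.2% (YAP) and 75.5% (WT), and the gene median -0.046. Joining regions within 1 kb turned the ratio of numbers to 1.01 and gave 0.954 for width and shares of 80.6% (YAP) and 80.01% (WT). In the full, unjoined lists the ratio of median widths was 1.007, and both settings turned it below 1. Shares were 55.4% (YAP) and 52.8% (WT) with reciprocal overlap of 50%, and 88.6% (YAP) and 87.4% (WT) within 1 kb. Genes with 2-fold fewer and 2-fold more numbered 652 and 886 over all annotated genes (median -0.053, with none listed at 113 in YAP and 222 in WT), 651 and 968 with 100 bases added (-0.069), 73 and 87 with 2000 added (-0.044), and 184 and 218 at 1 kb or more on average (-0.072). Gene bodies alone gave a median of -0.052, with neutrophil markers (1 gene) turning to 0.93, and scaling turned the gene median to 0.019. Of lists with medians nearer 0, 5 changed sign with gene bodies alone (olfactory receptor genes to 0.94), 5 with the higher-scoring 50% and 7 with scaling. The causes were not tested. Of 39 named genes with a fold, 36 stayed past 2-fold with 2000 bases added, and 31 of the 38 with a base did with the higher-scoring 50%. None turned under any setting, but those with no base in 1 list could not turn. All 39 were chosen for large differences in these same lists, so their direction was not tested. Depth per library is unknown, so an unlisted region may be one below the caller's threshold.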

Other observations

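Other gene families gave the following values, where 59.1% of all genes had fewer bases in YAP livers, 40.8% had more and 2.25% had 2-fold fewer. Of 31 forkhead genes 15 had more bases in YAP livers and 16 fewer, of 16 Kruppel-like factor genes 10 and 6, and of 352 Zfp zinc finger genes 113 and 239 (155 and 197 scaled to the WT total). Of 25 semaphorin and plexin genes 9 had more and 16 fewer, and of 16 ephrin and Eph receptor genes 8 and 8. Chemokine ligand genes had more at 10 and fewer at 7 of 17, and keratin genes at 8 and 3 of 11. Annexin genes had more at 6 and fewer at 3 of 9, with Anxa2, a membrane-binding annexin, at 4.09 kb in YAP livers and 1.72 kb in WT livers. Laminin genes had more at 6 and fewer at 3 of 9, S100 genes at 2 and 4 of 6, and tetraspanin genes at 10 and 9 of 19. Kinesin genes had more at 16 and fewer at 23 of 39, centromere protein genes at 7 and 14 of 21, and NADH dehydrogenase genes at 13 and 34 of 47 (25 and 22 scaled). All 3 major urinary protein genes with a base, of 22, had fewer by 2-fold (2.44 kb in YAP livers, 10.01 kb in WT livers). Only 14 of 1109 olfactory and 3 of 350 vomeronasal receptor genes had any base.

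Differences were also summed over 1 Mb stretches, and several of the largest held gene clusters. Of 2156 stretches with a base, 1376 (63.8%) had fewer in YAP livers. On chromosome 15 at 82 to 83 Mb, which holds Cyp2d9, Cyp2d26 and Cyp2d40, YAP livers had 55.7 kb and WT livers 84.8 kb. On chromosome 5 at 87 to 88 Mb, with Sult1b1 and the Ugt2a genes, YAP livers had 24.8 kb and WT livers 50.9 kb. On chromosome 5 at 17 to 18 Mb, with Cd36 and Sema3c, YAP livers had 15.1 kb and WT livers 2.495 kb. Chromosome 8 had the lowest ratio of covered bases (0.904, YAP over WT) and chromosome 11 the highest (0.968). The widest YAP region without a WT counterpart spanned 5.48 kb at 10.1 kb from Fam83b, an activator of MAP kinase signalling.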
